A study of Mus musculus with 8 samples.

Results

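The genes of polyamine synthesis and its control were followed here in mouse muscle satellite cells, the stem cells that lie along the muscle fibre and rebuild it after damage. The 9 genes are Odc1, Amd1, Srm, Sms, Sat1, Smox, Oaz1, Oaz2 and Azin1. They were chosen by name, with earlier results of these data already known. The basal group was made of 4 samples of satellite cells from uninjured skeletal muscle. The injured group was made of 4 samples from muscle 3 days after CTX, the snake toxin cardiotoxin, which destroys fibres. By their labels, all 8 samples came from male C57BL/6 mice with an age of 3 months, with no transgene or deletion named. The cells were sorted as positive for integrin alpha7 and negative for CD31, CD45, CD11b and Sca1. Total RNA of each sample was hybridised to its own 1-colour Agilent array. The labels call the samples biological replicates and do not say how many animals went into each, so the p-values measure the spread between these samples.

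Of 55681 different probes on the array, 16 carry the name of one of the genes, and they cover 7 of the 9. No probe carries the name Amd1 or Oaz2. A further 5 probes were read beside them under the names the array gives. Of these, 3 are named Amd2, and 2 of the 3 also list the Amd1 reference transcript, so the near-identical Amd1 and Amd2 transcripts cannot be told apart and are written Amd1/Amd2 below. The other 2 are named Oaz2-ps and carry an accession that RefSeq gives to Oaz2. Values below are log2 of the background-corrected signal minus the 75th percentile of that array, so 0 is the brightness of the probe at that percentile. Where a gene has several probes, the one with the highest mean signal stands for it. A gene's change is the injured mean minus the basal mean on that log2 scale, with its standard error (SE), and it was called higher or lower where limma's adjusted p over all 13597 genes tested was under 0.05. Signals of different probes are not compared as levels, since each probe has its own brightness.

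Polyamines are small, positively charged molecules that bind nucleic acids and are needed for growth and translation. Ornithine decarboxylase, the product of Odc1, makes putrescine, and S-adenosylmethionine decarboxylase, the product of Amd1, makes the aminopropyl donor that spermidine synthase (Srm) and spermine synthase (Sms) add in turn. Antizymes (Oaz1, Oaz2) bind ornithine decarboxylase and send it to the proteasome, and the antizyme inhibitor Azin1 takes the antizyme away from it. Spermidine/spermine acetyltransferase (Sat1) tags polyamines for export or oxidation, and spermine oxidase (Smox) turns spermine back into spermidine. Ornithine decarboxylase and the acetyltransferase are known for strong control of their translation and protein turnover, which an RNA array does not measure.

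The probes that carry the findings are shown first, 5′ to 3′ in the sense of the transcript, with positions from the array's own mapping to mouse build mm9. An mm9 gene annotation was not used here, so exon and UTR are not assigned. The 60-base probes of Odc1 (chr12:17554799-17554858, plus strand), Srm (chr4:147968254-147968313, plus) and Smox (chr2:131347853-131347912, plus) are given whole, because they stand for the first synthetic step, the spermidine synthase and the spermine oxidase.
Odc1 A_52_P436238: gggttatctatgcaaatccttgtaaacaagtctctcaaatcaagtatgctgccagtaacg
Srm A_55_P2002376: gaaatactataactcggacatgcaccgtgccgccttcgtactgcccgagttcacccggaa
Smox A_66_P107703: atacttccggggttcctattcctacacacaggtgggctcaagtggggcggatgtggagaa
For Sat1 (chrX:151647886-151647915, minus), Sms (chrX:153881916-153881945, minus), Azin1 (chr15:38418512-38418541, minus) and Amd1/Amd2 (chr10:40007325-40007354, minus) the first 30 bases of the probe that stands for the gene identify what was measured.
Sat1 A_55_P1989321: gtgacgttgttgcatgtttgaaattcagtc
Sms A_55_P2115995: tggtggttttagtgggctagaacattacta
Azin1 A_52_P24631: gatttgaatattgcccacttgaatatcatg
Amd1/Amd2 A_55_P2014506: gttggtgttggacttttaatcagctgaaat

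The samples have features that touch every result below. All basal arrays were on one slide and all injured arrays on another, with separate scans, so the slide and the group cannot be told apart. The share of spots well above background was 50.1% to 56.7%, no spot was saturated, and the number of arrays limits the precision. Some arrays did not match the male label. Xist, the RNA of the inactive X, read 3.85, 2.15, -1.12 and -4.97 on basal arrays 1 to 4 and 1.72, 6.37, 6.55 and 6.57 on injured arrays 1 to 4, and the Y-linked Ddx3y was not well above background on injured arrays 2, 3 and 4. The gate also removes CD11b-positive cells, yet Itgam, which encodes CD11b, read 8.74 to 9.09 over all 8 arrays on the brightest of its 3 probes. The other leukocyte markers did not all go with it. Ptprc and Csf1r were well above background on all 8 arrays, but Lyz2, Cd14 and C1qa on at most 1 array of each group. Pecam1, which encodes CD31, read 3.20 and 2.87 on basal arrays 1 and 2 but -3.22 on basal array 4, with array 3 also low, although the gate removes CD31-positive cells. Ly6a, which encodes Sca1, read 1.34 and 0.07 on basal arrays 1 and 2 but -3.30 and -3.49 on basal arrays 3 and 4. Results were therefore also computed without injured arrays 2, 3 and 4 and without basal arrays 1 and 2. Satellite cell markers were well above background on all 8 arrays, except that Calcr was not on any injured array. Of the 9 listed, 5 were lower after injury (Pax7, Cd34, Sdc4, Vcam1 and Calcr, which entered the test through the basal arrays alone). Another 2 were higher (Itga7 and Myod1) and 2 were not called, where 24.8% of all genes were lower and 35.4% higher. Pax7 differed by -2.95, Cd34 by -2.85, Sdc4 by -1.86 and Vcam1 by -0.75, against 1.13 for Itga7 and 0.77 for Myod1.

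Among the 7 genes found by the rule, 3 were higher after injury (Srm, Sms and Azin1), 2 were lower (Sat1 and Smox) and 2 were not called (Odc1 and Oaz1). Over all genes tested 60.2% were called, 35.4% higher and 24.8% lower, so 5 of 7 is near the background. Groups did not overlap for 5 of the 7, against 57.2% of all genes. The median change of the 7 was 0.63, and that of all genes was 0.17. Of the genes read under other array names, Amd1/Amd2 was higher and Oaz2 was lower. In these sorted populations, fewer cells of a type and less RNA per cell cannot be told apart.

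**Figure D1:**
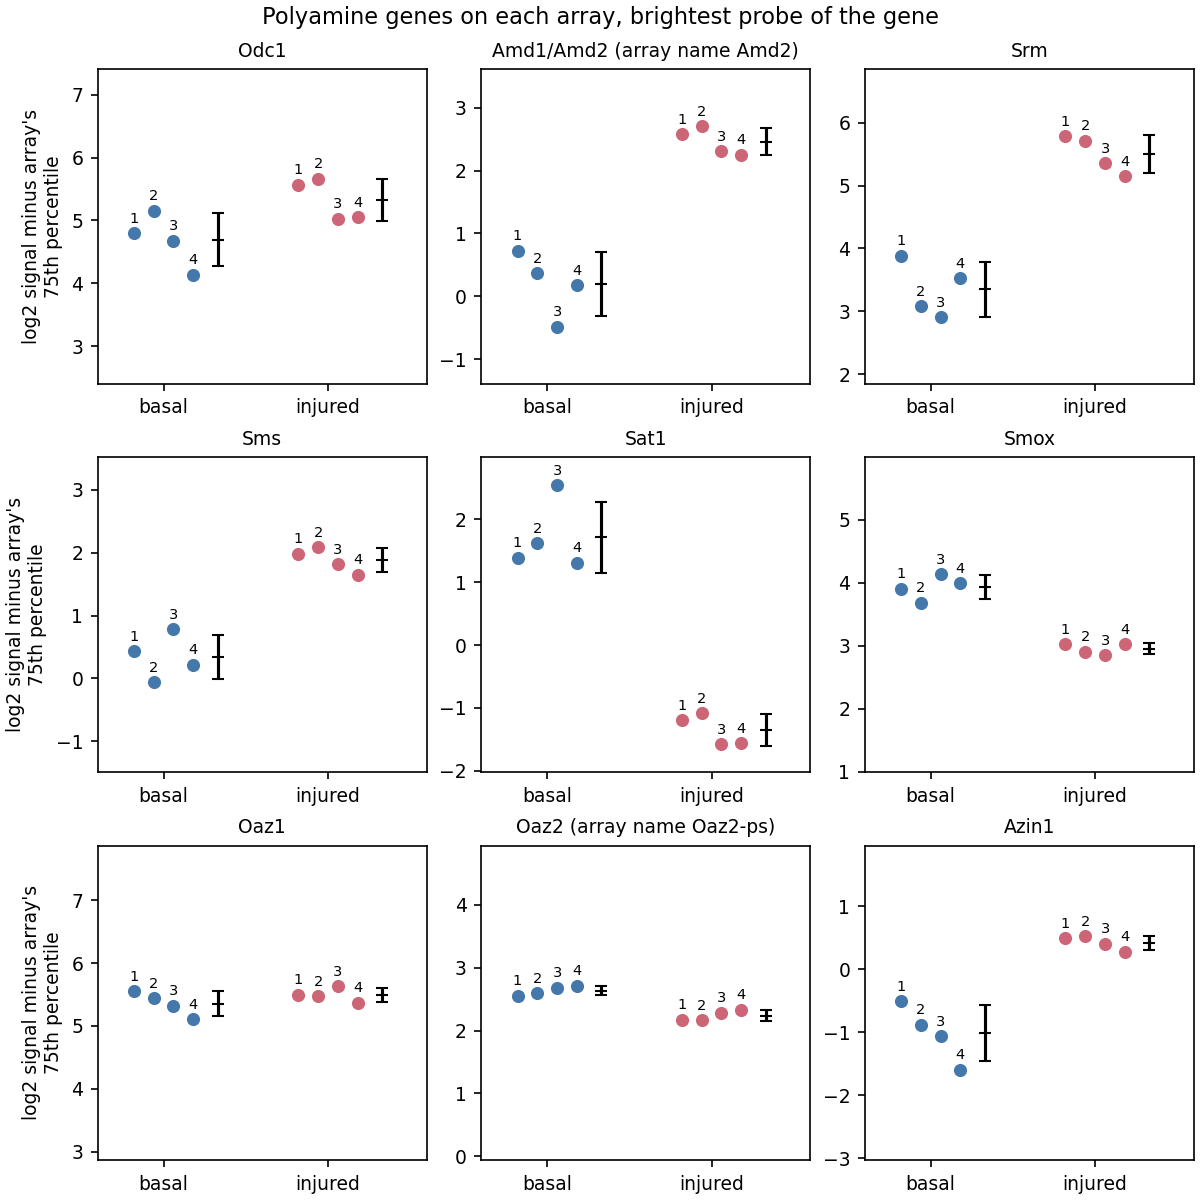
Log2 signal minus the array's 75th percentile for the brightest probe of each gene on each array (numbered points; blue basal, red injured), with the group mean and SD in black; each panel spans 5 log2 units, centred on its own gene. The groups are apart for Amd1/Amd2, Srm, Sms, Sat1, Smox, Oaz2 and Azin1, and overlap for Odc1 and Oaz1.

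Odc1, the first enzyme of the pathway, was not called. Its probe read 4.79, 5.16, 4.68 and 4.14 on basal arrays 1 to 4 and 5.57, 5.67, 5.03 and 5.05 on injured arrays 1 to 4. The 2 lower injured arrays, 3 and 4, lay below basal array 2, so the groups overlapped. The basal mean was 4.69 ± 0.42 (SD, n = 4) and the injured mean 5.33 ± 0.34 (SD, n = 4). The difference was 0.63 ± 0.25 (SE), a 1.55-fold higher mean, with an adjusted p of 0.0519 by limma. Without basal array 2 the difference was 0.79 and called (adjusted p 0.0236), as it was without basal arrays 1 and 2 (0.92, adjusted p 0.0188). With all 8 arrays kept, it also passed under other limma options and a stricter filter (adjusted p 0.0354 to 0.0442). In all, it was called under 6 of 22 alternatives and not under the other 16. With all probes averaged the difference was 0.12 (limma, adjusted p 0.663). It was 0.32 with quantile normalization (0.266) and 0.45 without basal array 4 (0.112).

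The decarboxylase that supplies the aminopropyl group was higher. Amd1/Amd2 read 0.73, 0.37, -0.48 and 0.18 on the basal arrays and 2.57, 2.70, 2.31 and 2.25 on the injured arrays. Every injured array was above every basal one, by more than 1 log2 unit. The difference of 2.26 ± 0.25 (SE) is a 4.79-fold rise (limma, adjusted p 1.38e-04). Its other probes rose by 1.72 (adjusted p over all probes 5.9e-05) and 1.00 (7.0e-04).

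Srm, which makes spermidine, rose with it. The basal arrays read 3.88, 3.08, 2.91 and 3.52 and the injured arrays 5.79, 5.71, 5.36 and 5.14. The lowest injured array, 4, was well above the highest basal array, 1. The difference was 2.15 ± 0.24 (SE), a 4.44-fold rise (limma, adjusted p 1.56e-04), and 4.77% of all genes tested rose further. The second Srm probe rose by 1.87 ± 0.39 (SE; adjusted p over probes 0.00379), with basal array 3 lowest at 1.72 and basal array 1 highest at 3.84.

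Sms, which makes spermine, is X-linked. It read 0.43, -0.06, 0.78 and 0.22 on the basal arrays and 1.98, 2.09, 1.81 and 1.65 on the injured arrays, again without overlap. The rise was 1.54 ± 0.20 (SE) or 2.91-fold (limma, adjusted p 2.69e-04). Against the 4 basal arrays, injured array 1 alone, the one with Ddx3y above background, gave 1.64 (adjusted p 0.0485), on the assumption that the lone array varies like the others. The probe A_55_P2025911 was not well above background on any basal array and rose at least 4.32-fold (fitted difference 2.32, adjusted p over probes 2.6e-04). This bound sets the mean of its injured arrays against the lowest signal that was well above background on each basal array, or the probe's own signal where that was higher. A_55_P2025911 entered the test through the injured arrays alone, so its call is not independent of the filter. The third Sms probe, A_55_P1998309, rose by only 0.74 ± 0.14 (SE; 0.00241).

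Within the injured group, the probes that stand for Odc1, Amd1/Amd2, Srm and Sms were each higher on arrays 1 and 2 than on arrays 3 and 4. Those of Sat1 and Azin1 showed the same order. It did not hold for the Sms probe A_55_P1998309 (1.53, 1.46, 1.54 and 1.37) or the Amd1/Amd2 probe A_55_P2014511 (0.55, 0.45, 0.50 and 0.14). A list of 6 muscle fibre genes ran the other way, with summed signals (linear, relative to the 75th percentile) of 17.2, 17.5, 43.4 and 40.2 on injured arrays 1 to 4 against 5.78 to 11.1 on the basal arrays. Its defining fast-fibre genes Ckm, Mylpf, Myh4 and Myh1 were mostly at background, and the sum came mainly from Acta1 and Tnnt3. Of the list, 2 genes could be tested and 1 of them, Tnnt3, was higher, where 35.4% of all genes were higher. Its part in the result was not tested.

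The genes that act on ornithine decarboxylase split. Oaz1, the main antizyme, read 5.56, 5.44, 5.32 and 5.10 on the basal arrays and 5.50, 5.47, 5.63 and 5.37 on the injured arrays. The groups overlapped throughout, and the difference was 0.14 ± 0.14 (SE; limma, adjusted p 0.404), with the opposite sign under quantile normalization (-0.18, adjusted p 0.191). Oaz2, the second antizyme, read 2.56, 2.60, 2.68 and 2.71 against 2.17, 2.17, 2.29 and 2.33. All injured arrays were lower, by a small amount: the fall was 0.40 ± 0.11 on the log2 scale (SE; limma, adjusted p 0.0127). Its other probe differed by -0.39 and was not called (adjusted p over probes 0.393), though it passed without basal array 1 (-0.75, 0.0384). With the mean of both probes Oaz2 was no longer called (adjusted p 0.150), nor with injured array 1 as the only injured array (-0.47, adjusted p 0.233).

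Azin1, the antizyme inhibitor, rose on the probe that stands for it. The basal arrays read -0.51, -0.88, -1.07 and -1.60 and the injured arrays 0.49, 0.53, 0.40 and 0.28. The injured arrays lay close together and above all basal ones. The rise was 1.44 ± 0.22 (SE) or 2.71-fold (limma, adjusted p 6.52e-04). With injured array 1 as the only injured array it was 1.51 and not called (adjusted p 0.0788). The probe A_51_P234544, above background on 1 basal array and on all injured arrays, rose by 1.98 (adjusted p over probes 6.8e-04), a size that fell to 0.56 with normexp background correction. In the authors' deposited table it was 0.30 and not called (0.708). The third probe, A_52_P117313, differed by -0.73 and was not called (0.107), but fell when basal array 4 was left out (-1.01, 0.0208).

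Both catabolic genes among the 9, Sat1 and Smox, were lower. Sat1, the acetyltransferase, read 1.39, 1.62, 2.54 and 1.31 on the basal arrays and -1.19, -1.08, -1.58 and -1.56 on the injured arrays. The lowest basal array was more than 2 log2 units above the highest injured array. The difference of -3.07 ± 0.28 (SE) on the log2 scale put the basal mean 8.38-fold above the injured mean (limma, adjusted p 5.28e-05), and 2.62% of all genes tested fell further. Sat1 has a single probe and is X-linked. With injured array 1 as the only injured array its change was -2.90 (adjusted p 0.0299 by limma), and without basal arrays 1 and 2 it was -3.28.

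Smox, the spermine oxidase, read 3.91, 3.69, 4.13 and 4.00 against 3.03, 2.90, 2.85 and 3.03. The groups were narrow and apart. Smox fell by 0.98 ± 0.13 (SE) on the log2 scale, and the basal mean was 1.97-fold the injured one (limma, adjusted p 3.62e-04). Its other probe fell by 0.80 ± 0.16 (SE; adjusted p over probes 0.00309). In the authors' deposited table Smox was not called (-0.48, adjusted p 0.217 by limma on those values). With injured array 1 as the only injured array it was -0.90 and not called (0.0914).

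Some markers of other cell types differed between the groups, and their part in these results was not tested. Over all genes tested, 24.8% were lower and 35.4% higher, to be set beside the counts below. Of 6 fibro-adipogenic markers, 3 could be tested and all 3 were lower after injury, with summed signals of 55.8 to 84.7 on the basal and 6.37 to 9.18 on the injured arrays. Dcn and Col1a1 among them entered the test through the basal arrays alone, so their calls are not independent of the filter. The defining marker Pdgfra was not well above background on any array. The 6 endothelial markers summed to 22.5 to 30.6 and 9.16 to 11.3, with 2 lower and 1 higher (Kdr, by 0.39) of 4 tested. Tek gave the largest part of each basal sum. It read 3.50, 3.13, 4.33 and 3.97 on basal arrays 1 to 4 and -1.24 to -0.44 on the injured arrays. Cdh5 and Emcn were above background only on basal arrays 1 and 2, so the markers of this list did not move alike. Of the 6 pericyte and smooth muscle markers 3 were lower and none higher, with sums of 57.1 to 95.9 and 47.4 to 73.5. Rgs5 and Pdgfrb among the lower ones entered the test through the basal arrays alone. Of 5 leukocyte markers tested 1 was lower and none higher. The sums were 473 to 541 and 492 to 584 over the list of 8, nearly all from Itgam, which encodes the gated CD11b. Proliferation genes differed as well, with 9 of 10 higher and sums of 4.03 to 23.1 and 60.2 to 78.4. Top2a and Ccna2 among them entered the test through the injured arrays alone.

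Contrasts between genes on the same array were tested by exact permutation of the 8 arrays (two-sided, 70 splits, smallest possible p 0.0286), with p adjusted over the 4 contrasts. Odc1 relative to Sat1 changed by 3.70 in log2 units (exact p 0.0286, adjusted 0.0381). Most of this is the fall of Sat1 (-3.07) already given, and Odc1 by itself (0.63) was not called, so the contrast adds nothing on Odc1. On the injured arrays this contrast lay between 3.62 and 3.78 above the basal mean, while the basal arrays lay between -0.84 and 0.56. Odc1 relative to its antizyme Oaz1 changed by 0.50 and did not pass (exact p 0.114, adjusted 0.114). With all probes of each gene averaged that contrast was -0.01. Relative to Azin1, Odc1 changed by -0.80 (exact p 0.0286, adjusted 0.0381), since Azin1 rose further. Srm relative to Sms changed by 0.61 (exact p 0.0286, adjusted 0.0381), the rise of Srm being the larger. These last 2 contrasts missed 0.05 when any 1 injured array was left out (exact p 0.0571 and 0.0857 to 0.114).

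Probe by probe, 7 of the 16 probes by the rule were higher, 3 lower and 6 not called, and 10 had groups that did not overlap. Of the higher probes, A_55_P2025911 of Sms and A_51_P234544 of Azin1 entered the test through the injured arrays alone. Over all 31315 probes tested 56.9% were called, 31.7% higher and 25.1% lower, and 53.8% had groups that did not overlap. Probes of the same gene did not always move alike, and none of the Odc1 probes was called. The 4 Odc1 probes differed between the groups by 0.63, 0.29, -0.06 and -0.37, with limma's adjusted p over all probes at 0.0555, 0.315, 0.784 and 0.292. The first, A_52_P436238, lies 2972 bases upstream of the next in the mm9 genome, and the other 3 overlap near the 3′ end of the gene. The A_55_P1982818 probe read 1.44, 2.32, 1.78 and 1.19 on the basal arrays and 1.61, 1.70, 1.04 and 0.87 on the injured arrays. All 4 probes were higher on injured arrays 1 and 2 than on 3 and 4, and highest of the basal arrays on array 2. The change on A_52_P436238 exceeded that on A_55_P1982818 by 1.01, that on A_55_P2035102 by 0.70 and that on A_55_P1995173 by 0.34 (exact permutation p 0.0286 each, adjusted over 14 probe pairs 0.04). In the authors' deposited table the changes of the 4 probes, in the order above, were 0.64, 1.04, 0.69 and 0.47, none called by limma.

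Their sequences show how closely the 3 downstream Odc1 probes are related. Both probes shown next hold the same 22 bases (lower case) and then part, one into a run of A at its end and the other into genomic sequence further downstream (capitals; from chr12:17557869, plus strand).
Odc1 A_55_P2035102: aaagtatcttgaaataactgggAAAAA
Odc1 A_55_P1982818: aaagtatcttgaaataactgggCATCGGGG
A_55_P2035102 ends after its 5 capitals, and A_55_P1982818 goes on past those shown. The motif AATAAA, a polyadenylation signal when used, is in A_55_P1995173 and A_55_P2035102 and not in A_55_P1982818. A_55_P1995173 and A_55_P2035102 overlap by 55 bases with 1 mismatch, T14G counted from the 5′ end of A_55_P1995173, shown here in capitals.
Odc1 A_55_P1995173: atgggccagaagcTtatgttgtgacccatt
Odc1 A_55_P2035102: ccagaagcGtatgttgtgacccattgtgaa
The changes of these probes, 0.29 and -0.06, differed by 0.35 (exact permutation p 0.0286, adjusted 0.04).

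Within the other genes, the Srm probes (difference of their changes 0.28 in size, exact p 0.314, adjusted 0.314) and the Smox probes (0.18, exact p 0.171, adjusted 0.2) did not differ beyond the permutation threshold. The 3 Sms probes all rose, and the change on A_55_P2115995 exceeded that on A_55_P1998309 by 0.80 (adjusted exact p 0.04). The pairs with A_55_P2025911 also passed but have no fixed size, since that probe was at background on the basal arrays, and with normexp its change was 0.75 against 1.27 for A_55_P2115995. In Azin1, A_52_P117313 lagged A_52_P24631 by 2.17 as measured (adjusted exact p 0.04). Its gap to A_51_P234544 rests on signals near background in both groups, the changes with normexp being -0.27 and 0.56. In all, 10 of 14 pairs passed. The first 30 bases of A_52_P117313 (chr15:38417373-38417402, minus strand) are given for comparison with those of A_52_P24631 above.
Azin1 A_52_P117313: gtctgacaaatggttgaaatgacagaagtc
This probe was well above background on all basal arrays but on only 2 injured arrays. Across the array, 171 of 3428 genes with more than 1 tested probe had probes called in opposite directions, which held for none of the polyamine genes by rule, Amd1/Amd2 or Oaz2 and for Adi1 among their neighbours.

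**Figure D2:**
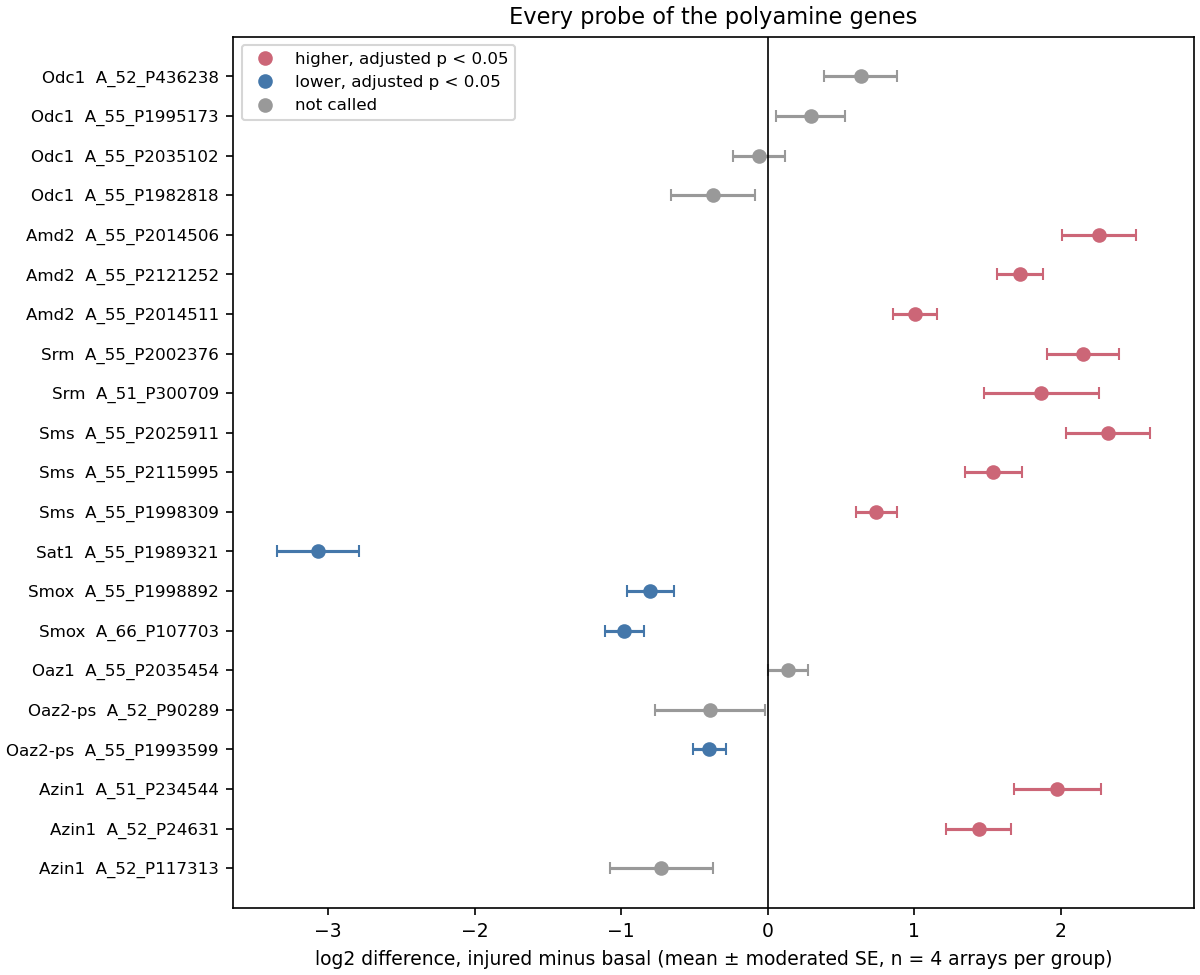
Log2 difference, injured minus basal, of all 21 probes of the polyamine genes under the names on the array, as mean ± moderated SE (n = 4 arrays per group); red higher, blue lower and grey not called by limma over all probes. Every Amd2, Srm and Sms probe is red, both Smox probes and the Sat1 probe are blue, and the 4 Odc1 probes spread from 0.63 to -0.37 in grey; the top Sms probe was not above background on basal arrays.

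**Figure D3:**
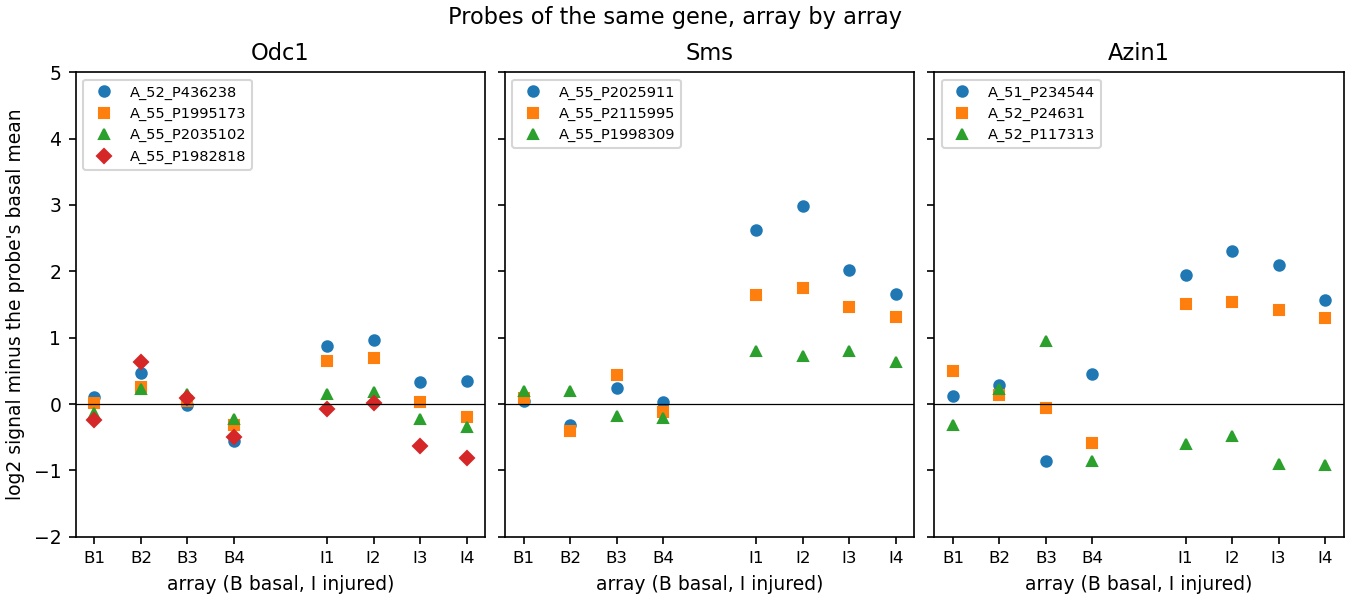
Log2 signal of each Odc1, Sms and Azin1 probe on every array, minus that probe's basal mean (B1 to B4 basal, I1 to I4 injured). The Odc1 probes keep their order on every injured array, and the Azin1 probe A_52_P117313 lies below 0 on all injured arrays while the other Azin1 probes lie above it.

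The steps around the pathway were read from a list of 27 genes for substrate supply, the methionine cycle and salvage, catabolism, transport and use of polyamines. Of these, 21 were tested, 13 were higher, 5 were lower and 3 were not called, where 35.4% of all genes were higher and 24.8% lower. Mtap and Slc18b1, both higher, entered the test through the injured arrays alone, and Sat2, which was lower, through the basal arrays alone. The median change was 1.04, against 0.17 for all genes, and it was 0.15 over the whole list without the filter on dim probes. All 3 genes that attach and carry hypusine, the spermidine-derived residue of a translation factor, were higher. Eif5a, the factor itself, read 6.39, 5.77, 5.54 and 5.21 on the basal arrays and 7.99, 8.05, 7.90 and 7.84 on the injured arrays. It rose by 2.22 ± 0.24 (SE) or 4.65-fold (limma, adjusted p 1.11e-04). Dhps, which makes the intermediate, rose by 1.29 ± 0.14 (SE; 1.35e-04), and Dohh, which hydroxylates it, by 1.37 ± 0.20 (SE; 4.71e-04). In the authors' deposited table Dohh had a value of -0.17, without a call (adjusted p 0.839).

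Substrate supply was mixed. Slc7a1, the carrier of arginine and ornithine, read -0.25, -0.40, -1.79 and -1.42 against 1.57, 1.53, 0.82 and 0.70, a rise of 2.12 ± 0.38 (SE; limma, adjusted p 0.00156). Arg1 and Arg2, the arginases that make ornithine, were not well above background on any array. Oat, the mitochondrial enzyme that transfers an amino group from ornithine, fell by 1.01 ± 0.19 (SE; 0.00213), but the authors' deposited table gave 0.64 (0.317). Slc3a2 read 4.25 to 5.28 on the basal and 4.92 to 5.28 on the injured arrays and was not called, and neither was Azin2, at 0.81 to 1.11 and 0.86 to 1.04.

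In the methionine cycle and salvage branch, which remakes methionine from the by-product of spermidine and spermine synthesis, 6 of 8 genes were higher and 2 lower, beside the same 35.4% and 24.8% of all genes. Mtap, the first salvage enzyme, was not well above background on any basal array and rose at least 4.73-fold (limma, adjusted p 2.19e-05). It entered the test through the injured arrays alone, so its call is not independent of the filter. In the authors' deposited table it was -0.12 (0.902). Apip, a later salvage enzyme, rose by 1.79 ± 0.29 (SE; 8.86e-04), with basal array 3 at -1.26 and the other basal arrays at -0.04 to 0.09. Got1, an aminotransferase counted here for the last salvage step, rose 8.55-fold (8.23e-04) from basal values between 0.13 and 2.83 to injured values between 4.31 and 4.53. Mat2a, which makes S-adenosylmethionine, fell by 1.32 ± 0.20 (SE; 9.02e-04), with basal array 2 dropped from its fit because the spot was marked as an outlier. Adi1, a dioxygenase of salvage, fell by 0.65 ± 0.12 (SE; 0.0014), yet the mean of its probes gave 0.11 (0.641).

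Among the remaining genes, Gpc1, a glypican with a reported part in polyamine uptake, rose by 2.27 ± 0.27 (SE; limma, adjusted p 1.81e-04). Atp13a2, the lysosomal polyamine exporter, fell by 1.79 ± 0.16 (SE; 5.17e-05), from basal values of 0.84 to 1.39 to injured values of -0.93 to -0.55. Its value in the authors' deposited table was -2.52e-04, without a call. Sat2, a relative of Sat1, fell by 1.48 ± 0.46 (SE; 0.0219) but overlapped, since basal array 1 read -2.33 and the other basal arrays -0.57 to -0.23. Sat2 lost its call, with adjusted p between 0.0511 and 0.0597, when any of basal arrays 2, 3 or 4 or injured arrays 2 or 3 was left out. Paox, which oxidises acetylated polyamines and is named here after its value was seen, was higher, so the 2 catabolic neighbours tested differ in direction. It read -0.80, -0.90, -1.61 and -1.18 on the basal and 0.19, -0.01, 0.35 and -0.48 on the injured arrays, without overlap, a rise of 1.13 ± 0.24 (SE) or 2.19-fold (limma, adjusted p 0.0033).

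**Figure D4:**
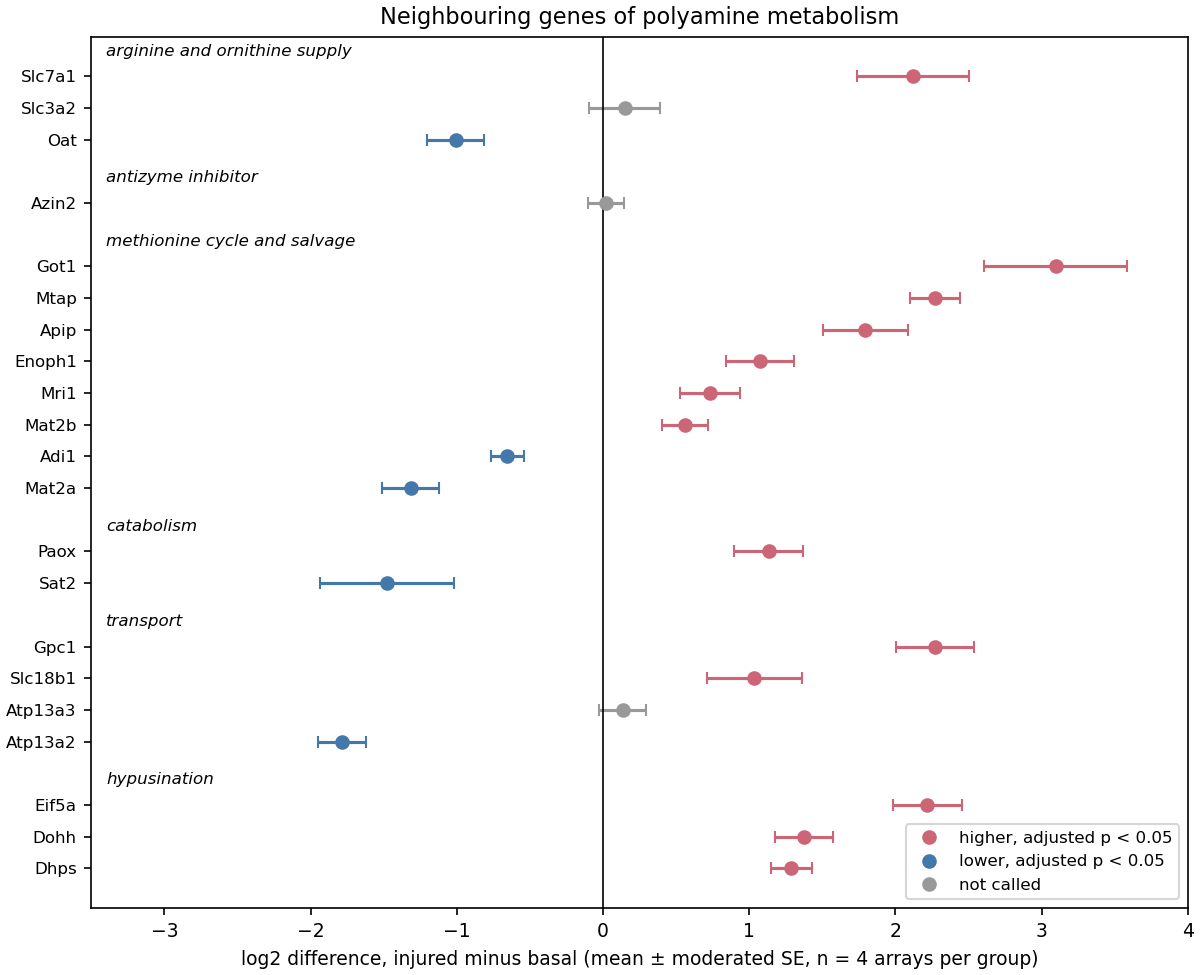
Log2 difference, injured minus basal, of the 21 tested neighbours of the polyamine pathway, grouped by step, as mean ± moderated SE (n = 4 arrays per group); red higher, blue lower, grey not called. All 3 hypusination genes and 6 of 8 methionine cycle and salvage genes are red, while Oat, Adi1, Mat2a, Sat2 and Atp13a2 are blue; Mtap was not above background on basal arrays.

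Odc1 is a textbook target of Myc, so the Myc network was listed beside it, as 10 genes of which 8 were tested, 2 higher, 3 lower and 3 not called, near the 60.2% called over all genes. Myc read 2.18, 2.16, 1.27 and 1.29 on the basal and 1.34, 1.16, 1.16 and 0.81 on the injured arrays. The 2 highest values were those of basal arrays 1 and 2, and the groups overlapped. The difference was -0.61 ± 0.26 (SE) and not called (limma, adjusted p 0.0671). It passed under 6 of 22 alternatives, among them without basal array 3 (-0.76, 0.0325) or basal array 4 (-0.76, 0.036). Without basal arrays 1 and 2 it was not called, and basal arrays 3 and 4 lay within the range of the injured arrays. Max, the partner of Myc, differed by -0.32 ± 0.15 (SE; 0.0895) and was not called. Mxd4, which competes with Myc for Max, fell by 1.58 ± 0.30 (SE; 0.00193). The other 2 lower genes were Mxd1 and Mga, and the 2 higher were Mycl and Mxd3, all named here after their values were seen. Mycl, a relative of Myc, was not well above background on any basal array and rose at least 1.74-fold (limma, adjusted p 2.43e-05). It entered the test through the injured arrays alone, so its call is not independent of the filter. Mxd3 rose by 0.88 ± 0.16 (SE; 0.00193), while Mxd1 fell by 1.37 and Mga by 0.75. Mycn was not well above background on any array.

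The genes whose centred values over the 8 arrays lay closest to those of Odc1, among 10638 candidates, were Mex3c, Gm15645 and Naf1, with root mean square distances of 0.124, 0.125 and 0.156 log2 units. Those closest to Sat1 were Pax7, Fos and Mdfic, at 0.231, 0.232 and 0.241. Pax7, which encodes a transcription factor of quiescent satellite cells, differed by -2.95 and Fos by -3.30. These 8 arrays fall into only 2 groups, so a gene with a like group difference is close by construction.

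Promoter windows from RefSeq on build GRCm38.p6 were found for 7 of the 9 genes, as 8 windows covering the 250 bases before the start. Srm and Azin1 had no entry. The motif CACGTG, the E-box to which Myc and Max bind, is its own reverse complement and was in 1 of the 8 windows (12.5%), against 6.02% of 32851 windows genome-wide. The motif GGGCGG, sought on both strands, was in 6 of 8 (75%), against 32.7% of all windows. The single CACGTG, in capitals, is in an Sms window (chrX:157492451-157492510, minus strand), 196 bases before the start.
Sms promoter: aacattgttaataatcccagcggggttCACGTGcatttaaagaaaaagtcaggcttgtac
Sequence after the start, introns included, was not searched, so a gene without a match here may hold the motif elsewhere. A match is a description of letters and says nothing of binding in these cells.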

How the data were processed

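One array was used per sample, and per the file headers the scans were quantified by version 10.7.3.1 of Agilent's Feature Extraction. The deposited intensity values (processed signals, background-corrected by that program) were used, with log2 taken after scaling to the 75th percentile of each array, and spots flagged as outliers were left out. The submitters' processing notes also name limma. The log2 values that the authors deposited as a series table matched their own scanner arrays with r of 0.705 to 0.929 and have column medians of 8.06 to 8.15. How they were centred is not stated in these sources, and they served only as an alternative.

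Probes were named by accession through RefSeq tables (GRCm38.p6, names only), and otherwise by the array's name, giving 21621 genes. A probe was tested where well above background on at least 3 of 4 arrays of a group (13597 genes, 31315 probes). The fit was limma's (version 3.58.1, R 4.3.3; lmFit, eBayes, no covariate, two-sided, Benjamini-Hochberg over everything tested, threshold 0.05). The procedure was tested on simulated data.

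Named genes were all probes of the 9 genes, the 6 largest called rises and the falls of the wider list, Arg1, Eif5a, Dhps, Dohh, Myc, Mycn, Mxd4, Max, and the 3 genes nearest Odc1 and Sat1. Ddx3y and the cell type markers were named where they touch a result. Paox, Mycl, Mxd1, Mxd3 and Mga were named after their values were seen. The members and lists were chosen with earlier results of these data known. Alternatives changed the background correction, scaling, filter, probe rule, gene naming, limma options, a replicate block and the arrays included.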

Additional observations from a re-analysis of the deposited data

Results flagged for a closer look

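In groups of 4 arrays, 3 of 86 groups of values held an array set far apart from the other 3 by Dixon's ratio of gap to range at the 95% level, and chance alone flags about 1 in 20 groups. Apip read -1.26 on basal array 3 against -0.04 to 0.09 on the other basal arrays. Apip on injured array 4 read 1.44 against 1.51 to 1.52, a small gap in a very narrow group. Sat2 read -2.33 on basal array 1 against -0.57 to -0.23 on the other basal arrays. None of the 9 polyamine genes had such an array.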

How the results depend on the processing

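Srm, Sms, Sat1 and Amd1/Amd2 kept their direction and call under all 22 alternatives, over 1.83 to 2.44, 1.19 to 2.18, -3.28 to -1.44 and 1.66 to 2.95. Odc1 was higher under all, from 0.12 to 0.92, and called under 6. The numbers shared by basal and injured samples did not pair them (correlations of same-numbered arrays 0.06, 0.06, -0.01 and 0.19), and with the replicate block Odc1 was called (adjusted p 0.0171). A slide block could not be fitted, since each slide holds 1 group. Where a setting changed a result, the cause was not tested.

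With injured array 1 as the only injured array, 761 genes were higher and 996 lower, so 43.3% of calls were higher against 58.9%. The polyamine genes by rule then had 1 lower, the wider list 3 higher and 1 lower, and the probes 2 higher and 1 lower. The authors' deposited table gave 775 genes lower (81.0% of calls higher, median of all genes 0.47), 1 polyamine gene lower, 1 probe lower and 0 of the wider list lower by limma (2 at an unadjusted p under 0.05). It turned the sign of Mtap (-0.12), Oat (0.64), Dohh (-0.17), Myc (0.047) and Max (0.98), and of 5 probes that stayed uncalled there, A_55_P1998892 of Smox (0.86), A_55_P1982818 (0.47) and A_55_P2035102 (0.69) of Odc1, A_52_P117313 of Azin1 (0.47) and A_52_P90289 of Oaz2 (0.60). Genes by array name alone gave 5347 lower among 21448 tested. Other background corrections and scalings of the scanner signals moved the median of all genes to between 0.06 and 0.13.

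The median of the polyamine genes was 0.18 with normexp and quantile normalization and 0.14 with all probes averaged. That of the wider list was 0.67 with normexp and the 75th percentile, 0.54 with normexp and quantile normalization, 0.15 without a filter, 0.61 without basal arrays 1 and 2, and 0.81 to 1.07 with 1 array left out. Oaz1 turned to -0.11 with normexp and quantile normalization and -0.18 with quantile normalization, and Adi1 to 0.11 with all probes averaged.

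Odc1 minus Oaz1 became -0.015 with all probes averaged. Odc1 minus Azin1 was -0.26 with normexp and the 75th percentile and -1.48 in the authors' deposited table (exact p 0.229 and 0.0571), and -0.94 to -0.69 with 1 array left out. Srm minus Sms was 0.42 with quantile normalization, 0.12 in the authors' deposited table and 0.47 with all probes averaged (exact p 0.229, 0.771 and 0.2), and 0.32 to 0.76 with 1 array left out.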
